A study of Homo sapiens with 14 samples.

Results

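The matrix metalloproteinases (MMP), the ADAM proteases (a disintegrin and metalloproteinase) and the ADAMTS proteases, which add thrombospondin motifs, were followed across 7 human prostate cancer cell lines on 14 expression arrays. A gene was taken when a probe set carried its symbol alone and the symbol was MMP, ADAM or ADAMTS with a number. MMP16 alone had more than 1 such probe set, and the brighter on average was used. This gave 61 of the 18372 genes measured: 22 MMP, 22 ADAM and 17 ADAMTS genes, of which 3 (ADAM3A, ADAM5 and ADAM6) are annotated as transcribed pseudogenes. MMP23A and MMP23B share 1 probe set and were left out by this rule. ADAM1A, ADAM1B, ADAM3B, ADAM7, ADAMTS7 and ADAMTS15 were not analysed here.

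Each line was measured on 2 arrays, which came from different passages. Both PC3-ML and PC3-N were derived from PC3, a line from a bone metastasis of prostate carcinoma, and DU-145 comes from a brain metastasis of prostate carcinoma. PC3-N(PDGFRα) and DU-145 (PDGFRα) are the same lines made to overexpress the alpha receptor of platelet-derived growth factor, encoded by PDGFRA, and they were compared with the unmodified lines, since no line with an empty vector is among the samples. PC3-ML (Clone 1) and PC3-ML (Clone 3), called Clone 1 and Clone 3 below, each descend from a single PC3-ML cell, so each is 1 clone. The culture medium was the same for every line, DMEM containing serum and gentamicin, and the cells grew without stroma or bone. The labels call PC3-ML, both clones and PC3-N(PDGFRα) bone metastatic, and the DU-145 lines and PC3-N not bone metastatic. The question the series poses is which genes differ between those groups.

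These enzymes carry zinc in their active site and are made as inactive proenzymes. MMPs cut collagens and other matrix proteins, secreted or tethered to the membrane. ADAMs release growth factors, cytokines, adhesion molecules and Notch from the cell surface, although several lack a working active site, and ADAMTS enzymes are secreted and cut proteoglycans, procollagens or von Willebrand factor. TIMP proteins inhibit them, and in bone MMP13 is the collagenase of cartilage and bone remodelling.

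The promoters of 4 members are shown as examples from the 8 whose transcripts differed between the PC3 and the DU-145 lines in every setting tried. They are 2 of each direction, ADAM19 and ADAMTS3 being higher in PC3 lines and ADAM10 and ADAM17 higher in DU-145 lines. The sequences are from RefSeq (GRCh38.p14) and run from 250 bases before to 50 bases after the annotated start, 5′ to 3′ on the strand of the gene. Capitals mark matches to the RUNX core TGTGGT or the ETS core AGGAAG on either strand.
ADAM19 (chr5:157575726-157576025, minus strand): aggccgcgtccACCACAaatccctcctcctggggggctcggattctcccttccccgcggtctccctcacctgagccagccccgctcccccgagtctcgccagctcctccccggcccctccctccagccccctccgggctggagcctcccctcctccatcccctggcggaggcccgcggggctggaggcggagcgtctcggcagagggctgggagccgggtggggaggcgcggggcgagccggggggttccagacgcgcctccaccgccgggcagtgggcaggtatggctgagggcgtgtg
ADAMTS3 (chr4:72569172-72569471, minus strand): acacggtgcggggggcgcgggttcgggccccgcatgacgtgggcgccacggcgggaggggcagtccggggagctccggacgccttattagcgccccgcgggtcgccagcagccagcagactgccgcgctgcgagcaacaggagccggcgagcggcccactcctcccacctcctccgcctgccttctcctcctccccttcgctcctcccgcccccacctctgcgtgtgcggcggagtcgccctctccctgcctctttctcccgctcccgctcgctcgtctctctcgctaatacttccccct
ADAM10 (chr15:58749658-58749957, minus strand): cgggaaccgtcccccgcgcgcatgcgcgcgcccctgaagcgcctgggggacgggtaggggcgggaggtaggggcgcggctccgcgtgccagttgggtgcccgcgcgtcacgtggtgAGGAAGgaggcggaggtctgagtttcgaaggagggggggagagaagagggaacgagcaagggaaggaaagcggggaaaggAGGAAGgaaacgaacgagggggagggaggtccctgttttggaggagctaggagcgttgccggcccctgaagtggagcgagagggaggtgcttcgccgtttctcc
ADAM17 (chr2:9555781-9556080, minus strand): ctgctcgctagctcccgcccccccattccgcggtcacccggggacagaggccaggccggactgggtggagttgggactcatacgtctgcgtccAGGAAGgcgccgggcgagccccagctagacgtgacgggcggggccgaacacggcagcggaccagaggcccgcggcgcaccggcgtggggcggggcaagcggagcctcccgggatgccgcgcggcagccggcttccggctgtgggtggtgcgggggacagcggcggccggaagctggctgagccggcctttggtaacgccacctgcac
The AP-1 site TGAGTCA was searched as well, and no motif overlapped another in these windows. Of the 61 members, 34 had a promoter in the RefSeq table. ADAM10 held the ETS letters at positions −134 and −54 from the start and ADAM17 at −157. ADAM12, also among the 8 and higher in PC3 lines, held them on the opposite strand at 33 after the start, and 8 of the 34 members held them (23.5%) against 33.7% of all 27305 promoters. ADAM19 held the RUNX letters, on the opposite strand, at −239, one of 3 such members against 13.1% of all promoters. ADAMTS3 held none of the motifs, and the AP-1 letters were found in 1 of 34 members, MMP7, against 4.92% of all promoters. These matches describe the letters of the windows and were not tied to binding.

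All levels below are deposited RMA intensities on a linear scale, and differences are given as log2 differences of line means. RMA subtracts background, equalises arrays and summarises the probes of a gene. Intensities differ between probe sets for reasons other than abundance, so levels are compared between lines for a gene and not between genes. Over all probe sets they ran from 18.5 to 8654, array medians from 29.9 to 31.6, and differences near the lower end are compressed. The 2 arrays of a line correlated at 0.989 to 0.996 across genes, which are not independent replicates. PC3-N replicate 2 was nearest to PC3-ML replicate 2 (r = 0.9935, against 0.9925 to its own passage), and DU-145 replicate 2 nearest to DU-145 (PDGFRα) replicate 1 (0.9905, against 0.9891). PDGFRA read 817.4 and 850.4 in PC3-N(PDGFRα) against 103.3 and 109.4 in PC3-N, and 129.6 and 92.2 in DU-145 (PDGFRα) against 28.2 and 25.5 in DU-145. It read 104.1 and 155.5 in PC3-ML, 130.1 and 125.5 in Clone 3 and 31 and 26.5 in Clone 1. Clone 1 was thus near unmodified DU-145 in this gene, and DU-145 (PDGFRα) near unmodified PC3-N. CTNNA1, deleted in PC3 cells, lay at 22.3 to 24.9 on the PC3 arrays and at 138.0 to 282.2 on the DU-145 arrays. Of 7 stromal markers, 5 were below a log2 intensity of 5 on every array, and their summed level stayed between 194.9 and 216.5 in all lines. The leukocyte and endothelial markers were below that level except CD68 and PECAM1. A gene was called when limma's moderated test gave a Benjamini-Hochberg adjusted p under 0.05 over all 18372 genes. In a comparison of single lines, the p sets the difference against the spread between passages, so separately derived lines could differ by more. In RNA of a whole culture, fewer cells with a transcript and less of it per cell cannot be told apart.

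Most of the family was dim and varied little between lines. On all 14 arrays 38 of the 61 members (62.3%) stayed below a log2 intensity of 5, against 6016 of 18372 genes (32.7%). This level is a description and not a limit of detection. The 7 line means spanned at least 1 log2 unit, that is, doubled between the lowest and highest line, in 8 members (13.1%), against 11.8% of all genes. These were ADAMTS1, MMP16, ADAMTS3, ADAM19, ADAM9, MMP13, MMP1 and ADAM10. The median span of the members was 0.15 and that of all genes 0.31.

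**Figure D1:**
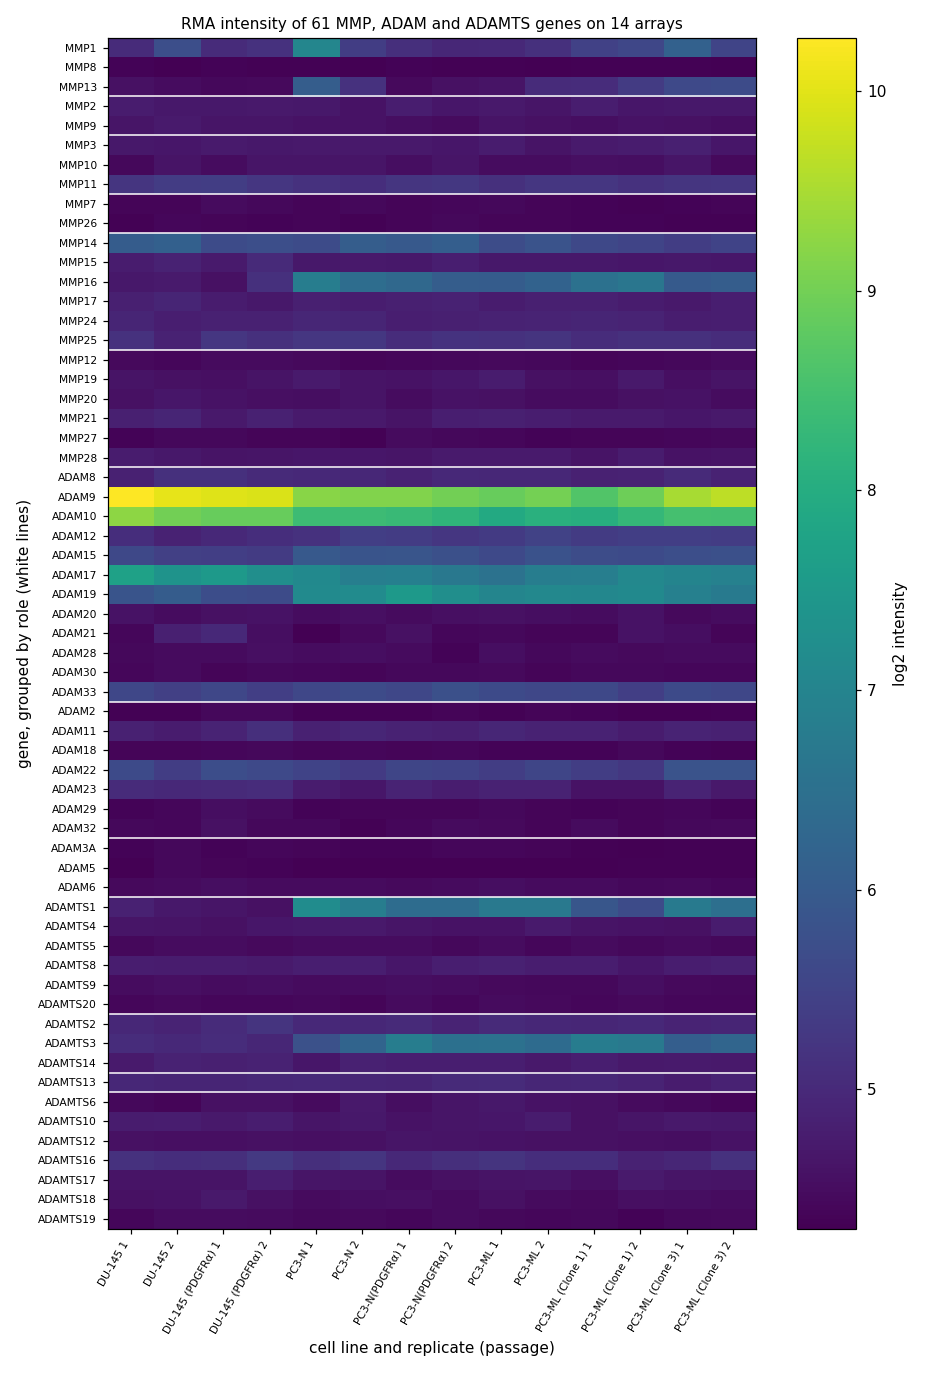
RMA intensity (colour, log2 scale) of the 61 genes (rows, grouped by role) on the 14 arrays (columns, by line and passage). Most rows are uniformly dark across lines; the bright or changing rows are mainly catalytic ADAM genes, ADAMTS1, ADAMTS3, MMP14 and MMP16.

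The collagenases cut fibrillar collagen. MMP13, collagenase-3, read 66.3 and 35.7 in PC3-N, 48.9 and 50.9 in Clone 3, 33.3 and 40.3 in Clone 1 and 24.6 and 32.9 in PC3-ML. In PC3-N(PDGFRα) it read 22.0 and 23.6, in DU-145 23.6 and 22.6, and in DU-145 (PDGFRα) 21.5 and 21.9. PC3-N and both clones lay above those last 3 lines on every array, PC3-ML did so by a narrow margin, and the passages of PC3-N differed more than those of any other line. MMP1, the interstitial collagenase, read 131.7 and 42.0 in PC3-N, 71.3 and 45.8 in Clone 3, 43.6 and 47.2 in Clone 1 and 31.7 and 35.2 in PC3-ML. In PC3-N(PDGFRα) it read 34.3 and 31.0, in DU-145 32.7 and 53.2, and in DU-145 (PDGFRα) 33.0 and 35.6. The high MMP1 and MMP13 readings of PC3-N came from replicate 1 in both genes. MMP8, the neutrophil collagenase, stayed between 19.7 and 20.5.

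MMP1 and MMP13 belong to a row of 9 neighbouring MMP genes on chromosome 11, in the RefSeq order MMP7, MMP20, MMP27, MMP8, MMP10, MMP1, MMP3, MMP12 and MMP13. The other 7 lay between 19.7 and 28.2 on every array, and the largest span of their line means was 0.15. MMP3, the stromelysin located between MMP1 and MMP12, ran from 24.5 to 28.2.

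**Figure D2:**
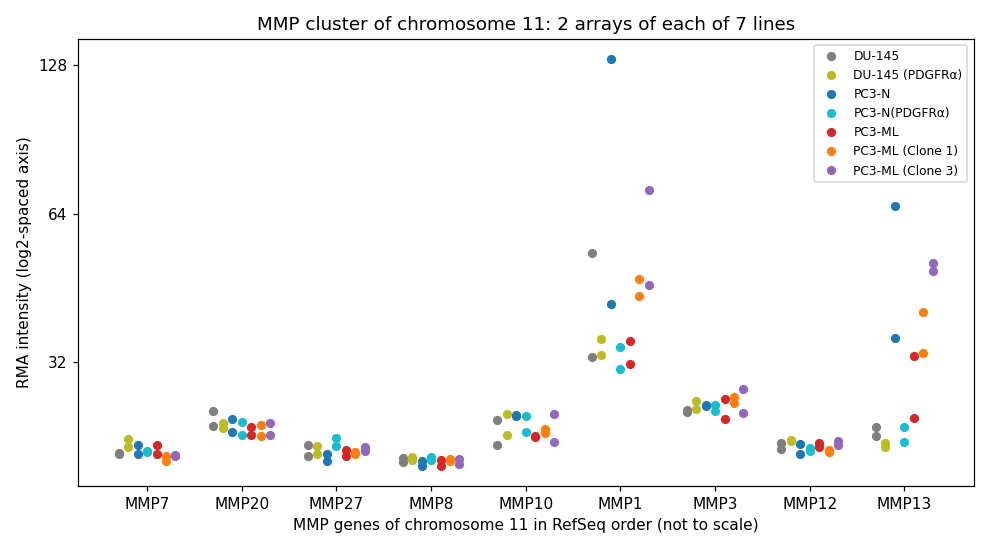
RMA intensity (log2-spaced axis) of the 9 MMP genes of chromosome 11 in genome order, not to scale, with 2 points per line. Only MMP1 and MMP13 leave the band of 19.7 to 28.2 that holds the other 7 genes.

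Among the remaining MMPs the gelatinases MMP2 and MMP9, which cut denatured and basement membrane collagen, lay between 22.3 and 27.6. The matrilysins MMP7 and MMP26 lay between 20.1 and 22.3. MMP11, a stromelysin activated inside the cell, ran from 33.7 to 41.8. Of 6 membrane-type MMPs, MMP14, which activates the MMP2 proenzyme, read 65.4 and 69.7 in DU-145, 62.3 and 67.9 in PC3-N(PDGFRα), 50.4 and 66.5 in PC3-N and 51.5 and 56.7 in PC3-ML. It read 50.6 and 53.1 in DU-145 (PDGFRα), 48.0 and 46.3 in Clone 1 and 41.5 and 45.5 in Clone 3. Clone 3 was lowest, and lines next to each other in this order mostly overlapped. MMP16, another membrane-type enzyme, read 113.6 and 87.1 in PC3-N, 91.6 and 99.2 in Clone 1, 79.7 and 66.3 in PC3-N(PDGFRα), 65.3 and 72.5 in PC3-ML and 63.7 and 66.8 in Clone 3. In DU-145 it read 25.7 and 26.5 and in DU-145 (PDGFRα) 23.9 and 35.1. Every PC3 array exceeded every DU-145 array. The second MMP16 probe set gave line means of 34.4 to 40.5 in PC3 lines and 23 and 26.6 in the DU-145 lines. MMP25, held to the membrane by a lipid anchor, ran from 29.4 to 38.6, and the 6 other MMPs from 20.1 to 30.1.

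Of 12 ADAMs with a working active site, 7 had a mean log2 intensity of at least 5, against 16 of all 61 members. ADAM9, a sheddase, read 1233 and 1059 in DU-145 and 1000 and 975.3 in DU-145 (PDGFRα). It read 712.4 and 823.2 in Clone 3, 589.7 and 567.1 in PC3-N, 559.6 and 508.9 in PC3-N(PDGFRα), 469.6 and 515.7 in PC3-ML and 399.3 and 496.8 in Clone 1. DU-145 lines were highest, and Clone 3 stood above the other PC3 lines on both arrays. ADAM10, the sheddase of Notch and of cadherins, read 609.5 and 512.0 in DU-145 and 472.5 and 474.6 in DU-145 (PDGFRα). It read 361.6 and 361.1 in Clone 3, 333.7 and 334.9 in PC3-N, 323.7 and 292.8 in PC3-N(PDGFRα), 262.6 and 311.2 in Clone 1 and 243.1 and 272.0 in PC3-ML. The order was again DU-145 lines, then Clone 3. ADAM17, which releases tumour necrosis factor and ligands of the epidermal growth factor receptor, read 210.8 and 164.0 in DU-145 and 185.5 and 152.2 in DU-145 (PDGFRα). Its PC3 arrays lay between 94.4 and 140.5, below all 4 DU-145 arrays.

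ADAM19, a sheddase of neuregulin, ran the other way. It read 181.8 and 151.9 in PC3-N(PDGFRα), 142.6 and 145.9 in PC3-N, 133.3 and 139.5 in Clone 1, 128.4 and 135.3 in PC3-ML and 118.9 and 106.1 in Clone 3. In DU-145 it read 57.8 and 65.5 and in DU-145 (PDGFRα) 52.1 and 50.5, so no DU-145 array reached a PC3 array. ADAM12, which also cuts binding proteins of insulin-like growth factors, ran from 35.8 to 44.5 on PC3 arrays and from 29.3 to 33.9 on DU-145 arrays. ADAM15 ran from 48.9 to 62.3 on PC3 arrays and from 40.4 to 48.2 on DU-145 arrays. ADAM33, named here as an example of its group, ran from 42.7 to 54 with a span of 0.17. ADAM21 lay between 19.7 and 31.6, below a log2 intensity of 5 on all arrays.

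Among 7 ADAMs without a working active site, ADAM22, a neuronal receptor of secreted LGI proteins, read 56.8 and 56.7 in Clone 3 and 38.4 to 52.4 on the other arrays. ADAM23, its relative, read 24.2 on both arrays of Clone 1, 33.0 and 31.7 in DU-145 and 32.4 and 33.3 in DU-145 (PDGFRα). Both moved by at most 0.50 log2 units between lines. Of the 7, 4 stayed below a log2 intensity of 5 throughout, as did the 3 pseudogenes.

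ADAMTS1, which cuts the proteoglycans aggrecan and versican, had the widest span of the 61 members, 2.41. It read 148.0 and 113.3 in PC3-N, 104.7 and 104.6 in PC3-ML, 107.6 and 89.5 in Clone 3, 85.3 and 85.1 in PC3-N(PDGFRα) and 59.6 and 51.1 in Clone 1. In DU-145 it read 28.8 and 25.6 and in DU-145 (PDGFRα) 25.1 and 23.8. The PC3 lines were all above the DU-145 lines, and Clone 1 was the lowest of the PC3 lines on both arrays. The other 5 aggrecan and versican cleaving members stayed below a log2 intensity of 5, among them ADAMTS5, the neighbour of ADAMTS1 on chromosome 21, at 21.1 to 22.7. ADAMTS3, which removes the amino-terminal propeptide of procollagen, read 114.5 and 90.5 in PC3-N(PDGFRα), 111.9 and 105.5 in Clone 1, 91.8 and 84.2 in PC3-ML, 67.5 and 75.5 in Clone 3 and 55.1 and 74.7 in PC3-N. In DU-145 it read 33.4 and 31.9 and in DU-145 (PDGFRα) 33.1 and 30.5. Within the PC3 lines PC3-N was low for ADAMTS3 and high for ADAMTS1. ADAMTS2, of the same role as ADAMTS3, ran from 29.7 to 36.8, ADAMTS16 from 29.3 to 39.3, and ADAMTS13, the protease of von Willebrand factor, from 27.2 to 32.7.

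**Figure D3:**
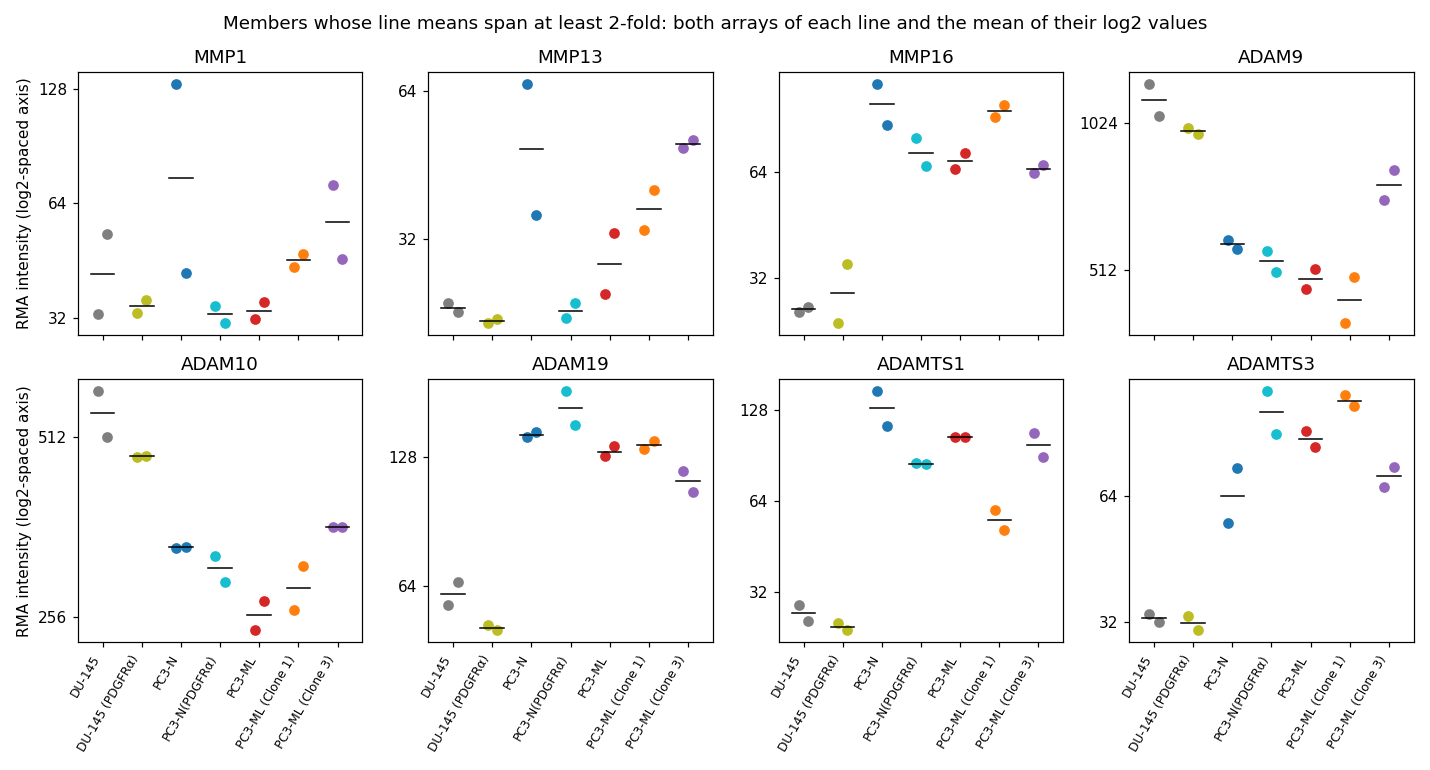
RMA intensity (log2-spaced axis) of the 8 members whose line means spanned at least 1 log2 unit, by line, with a point for each of the 2 passages and a bar for the line mean. ADAMTS1, ADAMTS3, ADAM19 and MMP16 sit lower in both DU-145 lines and ADAM9 and ADAM10 higher, while MMP1 and MMP13 differ between the passages of PC3-N.

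The PC3 and DU-145 origins were compared on the 7 line means, 5 against 2, with the line as the replicate. Members differed in both directions: ADAMTS1, MMP16, ADAMTS3, ADAM19, ADAM12 and ADAM15 were higher in the PC3 lines, and ADAM9, ADAM10, ADAM17, ADAM21 and MMP15 higher in the DU-145 lines. These 11 of 61 members (18%) stand beside 17.6% of all genes called, so the share called was near that of the background. The ADAM groups differ in brightness, and differences between dim readings are compressed. A mean log2 intensity of at least 5 was reached by 7 of 12 catalytic ADAMs and 1 of 7 without a working active site. The count of calls was 7 of 12 among catalytic ADAMs and 0 of 7 among ADAMs without a working active site, a difference that was not tested. The latter count turns on ADAM23 (−0.27, adjusted p = 0.0568), which was called under quantile normalization (0.0496), trended and robust moderation (0.0186) and the fit of 14 arrays (5.0e-04), and without PC3-N(PDGFRα) replicate 1 (0.0441) or Clone 3 replicate 1 (0.048). By size, ADAMTS1 differed by 1.82 (SE 0.30, 3.54-fold, adjusted p = 0.00982), MMP16 by 1.52 (SE 0.19, adjusted p = 0.00335), ADAMTS3 by 1.40 (SE 0.22, adjusted p = 0.00731) and ADAM19 by 1.29 (SE 0.15, adjusted p = 0.00269). The sheddases differed by −0.94 for ADAM9 (SE 0.20, adjusted p = 0.024), −0.74 for ADAM10 (SE 0.14, adjusted p = 0.0151) and −0.58 for ADAM17 (SE 0.10, adjusted p = 0.01). ADAM12 (0.34), ADAM15 (0.33), ADAM21 (−0.24) and MMP15 (−0.15) differed by less. MMP13 differed by 0.67 (SE 0.32, adjusted p = 0.215) and was not called. In the fit of 14 arrays, which measures the spread between passages, limma called it (SE 0.14, adjusted p = 0.00317). PC3-ML and PC3-N(PDGFRα) lay near the DU-145 lines in this gene. The median difference was −0.02 over the members and −0.01 over all genes.

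**Figure D4:**
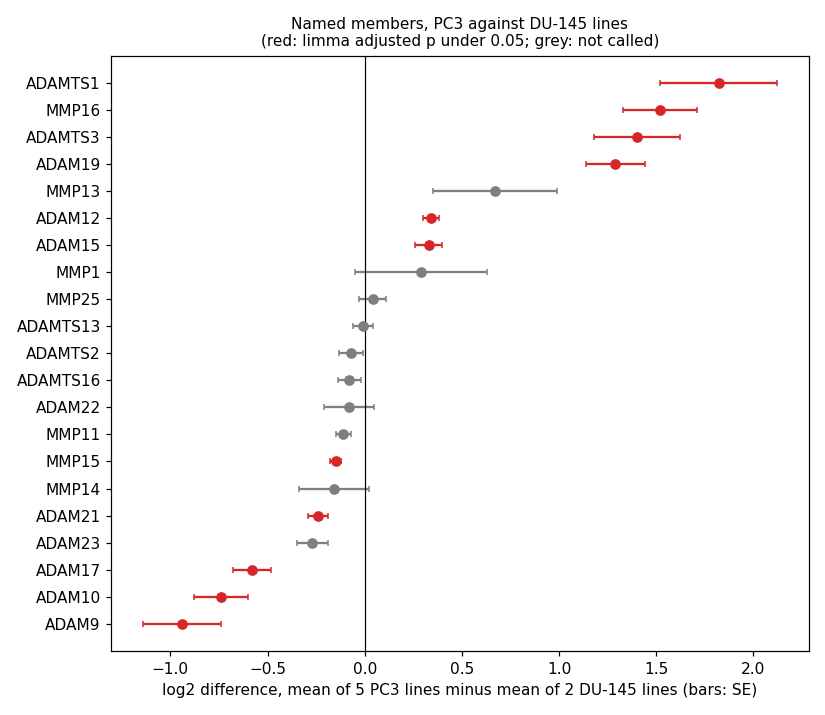
Difference of log2 intensity, mean of 5 PC3 lines minus mean of 2 DU-145 lines (x axis, bars are SE), for the named members (y axis); red marks limma adjusted p under 0.05. ADAMTS1 at 1.82 and MMP16 at 1.52 are farthest right, and ADAM9 at −0.94 is farthest left.

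Of these calls, 8 held in every alternative run. ADAM15 was not called without PC3-ML replicate 2 (adjusted p = 0.064) or DU-145 replicate 2 (0.0699), and ADAM21 and MMP15 each depended on several arrays, with adjusted p of 0.395 and 0.14 without DU-145 replicate 2. ADAM21 was also not called in the fit of 14 arrays (0.0783) and shrank to −0.14 without DU-145 replicate 2 and −0.12 without DU-145 (PDGFRα) replicate 1, and MMP15 shrank to −0.08 without DU-145 (PDGFRα) replicate 2. Both of these lay at the dim end, and the lines of an origin are not independent of each other.

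Transcripts of the substrates, inhibitors, partners and regulators of these enzymes were read from lists of 77 genes. By origin 15 of them (19.5%) were called, near the 17.6% of all genes. Of 18 shed substrates, 2 were higher and 2 lower in the PC3 lines. N-cadherin, CDH2, an ADAM10 substrate, differed by 4.34 (SE 0.13, adjusted p = 1.5e-05) and the receptor NOTCH2 by 0.75 (adjusted p = 0.0334). Epiregulin, EREG, a growth factor shed by ADAM17, differed by −2.88 (SE 0.14, adjusted p = 1.0e-04) and E-cadherin, CDH1, by −1.56 (SE 0.34, adjusted p = 0.0263). The CDH1 call was lost without replicate 2 of DU-145 (0.0543) or of DU-145 (PDGFRα) (0.0602), and that of NOTCH2 without PC3-ML replicate 2 (0.0674). Of 14 matrix substrates only fibronectin, FN1, was called (2.99, SE 0.39, adjusted p = 0.00423). Of 6 inhibitors only RECK, a membrane-anchored MMP inhibitor, was called, at −0.41 (adjusted p = 0.00628). CD44, a docking site for MMP9 and MMP14, was the 1 called of 12 activators and cofactors (0.65), TSPAN14, an ADAM10 partner, the 1 of 9 partners (−0.27), and ADAMTSL3 the 1 of 5 ADAMTS-like proteins (0.54). TSPAN14 was not called without PC3-ML replicate 2 (0.0793) or either DU-145 replicate (0.0549 and 0.0615), and was −0.16 without replicate 1 of DU-145. Of 13 AP-1, RUNX and ETS factors, known regulators of MMP genes, 3 were higher, ETV1 (2.66, adjusted p = 0.00184), ETV4 (1.01) and FOSL1 (0.61). The 3 lower were ETS2 (−0.69), FOSL2 (−0.36) and JUNB (−0.34), the last 2 named beyond the rule after their values were seen. The JUNB call was lost under 4 alternatives, with adjusted p up to 0.0715, and its difference was −0.21 without DU-145 (PDGFRα) replicate 2.

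PC3-ML against PC3-N compares a bone metastatic subline with one labelled not bone metastatic. No member was called by limma (0 of 61, 7 at an unadjusted p under 0.05, no other test run), beside 0.348% of all genes. MMP1 differed by −1.16 (SE 0.44, adjusted p = 0.369) and MMP13 by −0.77 (SE 0.24, adjusted p = 0.25), both lower in PC3-ML. ADAMTS3 differed by 0.45 (adjusted p = 0.271) and ADAM10 by −0.38 (adjusted p = 0.193). Without PC3-N replicate 2, 2 members were called, MMP1 (−1.98, adjusted p = 0.0198) and MMP13 (−1.22, adjusted p = 0.0112), PC3-N then being 1 array whose spread is taken from the other lines. Among the 6 inhibitors, TIMP3, which is bound to matrix and inhibits MMPs and ADAM17, rose by 1.75 in PC3-ML (SE 0.09, adjusted p = 3.2e-05), from a line mean of 46.3 to 155.3. The second TIMP3 probe set read 43.8 and 40.3 in PC3-ML and 32.7 and 32.3 in PC3-N, a smaller difference in the same direction, and the mean of both probe sets gave 1.06. None of the other pathway lists, described under origin above, held a called gene in this comparison.

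Overexpression of PDGFRα was compared with the unmodified line in each origin. In PC3-N, MMP13 fell by 1.09 on the log2 scale (SE 0.24, 2.13-fold, adjusted p = 0.048) and ADAMTS1 fell by 0.60 (SE 0.13, adjusted p = 0.0485), while ADAMTS3 rose by 0.67 (SE 0.14, adjusted p = 0.048). The passages did not overlap between the lines for any of these genes. Since a test on the same arrays picked them, this adds no support to the calls. These 3 of 61 members (4.92%) stand beside 2.2% of all genes. MMP1 differed by −1.19 (SE 0.44, adjusted p = 0.238) and MMP16 by −0.45 (adjusted p = 0.271). All 3 calls were close to the threshold and none was left without PC3-N replicate 1 or without either PC3-N(PDGFRα) replicate, with adjusted p of 0.135 to 0.243 for MMP13. Leaving out replicate 1 of PC3-N brought the MMP13 difference to −0.65, and leaving out replicate 2 brought it to −1.54. Without PC3-N replicate 2, MMP1 was called as well (−2.01, adjusted p = 0.0117). Quantile normalization and the replicate block, which fits the replicate number as a term, each left 1 lower call, ADAMTS1, and 0 higher.

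Around these enzymes TIMP3 fell by 0.78 in PC3-N(PDGFRα) (SE 0.09, adjusted p = 0.00399) and the tissue plasminogen activator PLAT, which generates plasmin, an activator of MMP proenzymes, fell by 1.45 (SE 0.18, adjusted p = 0.00444). The second TIMP3 probe set read 32.7 and 32.3 in PC3-N against 27.1 and 28.6 in PC3-N(PDGFRα), and the mean of both gave −0.50. The integrin gene ITGB3 rose by 0.55 (adjusted p = 0.0123) but was not called without PC3-N replicate 1 (0.0822) or PC3-N(PDGFRα) replicate 1 (0.101). No gene of the substrate, partner, ADAMTS-like or factor lists was called. PC3-N served as control both here and for PC3-ML, so a high reading in PC3-N enters both comparisons.

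In DU-145, PDGFRα overexpression gave no member a call by limma (0 of 61, 7 at an unadjusted p under 0.05), beside 0.31% of all genes. MMP14 differed by −0.38 (SE 0.12, adjusted p = 0.194), with both arrays of DU-145 (PDGFRα) below both of DU-145. ADAM19 differed by −0.26 (adjusted p = 0.272) and ADAM10 by −0.24 (adjusted p = 0.361), and MMP13 by −0.09, at the dim end in both lines. The effect in PC3-N was set against that in DU-145 in a test of the difference. It called 0 of 61 members (9 at an unadjusted p under 0.05), beside 0.533% of all genes, so no member's response was shown to differ between the origins. The difference of effects was −1.01 for MMP13 (SE 0.33, adjusted p = 0.246), 0.71 for ADAMTS3 (adjusted p = 0.19), 0.55 for MMP14 (adjusted p = 0.205) and 0.47 for ADAM19 (adjusted p = 0.186). Without PC3-N replicate 2, MMP13 (−1.45, adjusted p = 0.0234) and MMP14 (0.75, adjusted p = 0.0337) were called. No gene of the pathway lists was called in DU-145. In the test of the difference, TIMP3 (−0.74, adjusted p = 0.0456), PLAT (−1.62, adjusted p = 0.0298), the urokinase gene PLAU (1.56, adjusted p = 0.0401) and ITGB3 (0.78, adjusted p = 0.0304) were called. Each of these calls was lost when 1 of several arrays was left out, as without PC3-N replicate 1, where the adjusted p was 0.117, 0.0903, 0.117 and 0.0787. The replicate block also ended the TIMP3 and PLAU calls (both 0.0692), and TIMP3 was lost under quantile normalization (0.0808) and with the mean of both probe sets (0.0738, at −0.50).

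The clones were compared with PC3-ML, the line they came from, and with each other, so PC3-ML is shared by both comparisons. In Clone 1, ADAMTS1 fell by 0.92 (SE 0.13, 1.89-fold, adjusted p = 0.00153) and ADAM23 fell by 0.27 (SE 0.07, adjusted p = 0.0319). In Clone 3, ADAM9 rose by 0.64 (SE 0.12, adjusted p = 0.0101), ADAM10 by 0.49 (SE 0.10, adjusted p = 0.0173) and ADAM22 by 0.36 (SE 0.09, adjusted p = 0.0468). These were 2 of 61 members (3.28%) beside 13.8% of all genes in Clone 1, and 3 of 61 (4.92%) beside 8.1% in Clone 3. MMP13 differed in Clone 3 by 0.81 (SE 0.24, adjusted p = 0.0689) and was not called. The ADAMTS1 call in Clone 1 held in every alternative run, and that of ADAM23 was lost when any array of PC3-ML or Clone 1 was left out (adjusted p 0.101 to 0.147) and under quantile normalization (0.0762). In Clone 3 none of the 3 calls was left without PC3-ML replicate 1 or Clone 3 replicate 2, with adjusted p of 0.0946 and 0.0739 for ADAM9. ADAM9 alone was left without Clone 3 replicate 1, and ADAM22 was lost without PC3-ML replicate 2 (0.0614).

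Between the clones, 4 of 61 members (6.56%) were called beside 10.5% of all genes. ADAM9 was lower in Clone 1 than in Clone 3 by a log2 difference of −0.78 (SE 0.12, adjusted p = 0.00241), ADAMTS1 by −0.83 (SE 0.13, adjusted p = 0.00317) and ADAM22 by −0.50 (SE 0.09, adjusted p = 0.00795). ADAMTS3 was higher in Clone 1 by 0.61 (SE 0.14, adjusted p = 0.0246). MMP16 (0.55, adjusted p = 0.0844) and ADAM10 (−0.34, adjusted p = 0.0688) were not called. In alternative limma runs MMP16 was called among genes with a mean log2 of at least 5 (0.0305) and under trended and robust moderation (0.0424). In Clone 1 against PC3-ML, MMP16 was also called among genes with a mean log2 of at least 5 (0.47, adjusted p = 0.0498). Between the clones ADAM10 was called under quantile normalization (0.0311), and its difference was −0.46 without Clone 1 replicate 2. The ADAM9 and ADAMTS1 calls held in every alternative run. ADAMTS3 was lost when any array of either clone was left out (adjusted p 0.0634 to 0.154) and ADAM22 without Clone 1 replicate 2 (0.0716).

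Of the 77 pathway genes 16 (20.8%) were called in Clone 1 and 10 (13%) in Clone 3, beside the 13.8% and 8.1% of all genes. Of 6 inhibitors, TIMP3 and TIMP1 were called in both clones, in opposite directions. TIMP3 fell by 2.55 in Clone 1 (SE 0.09, adjusted p = 2.5e-06) and fell by 2.22 in Clone 3 (SE 0.09, adjusted p = 2.4e-06), to line means of 26.5 and 33.4. Its second probe set had a line mean of 42.1 in PC3-ML and means of 25.9 and 29.1 in Clone 1 and Clone 3, and the mean of both probe sets gave −1.63 and −1.38. TIMP1, a soluble inhibitor, rose by 1.55 in Clone 1 (SE 0.20, adjusted p = 0.00104) and by 1.32 in Clone 3 (SE 0.20, adjusted p = 0.00474). TIMP1 in Clone 3 was not called without PC3-ML replicate 1 (0.051). The 4 other inhibitors were not called in either clone. Of 14 matrix substrates, 2 rose in each clone and none fell. One of them in both clones was tenascin C, TNC (0.51 and 0.60), whose call was lost when any array of the lines compared was left out, with adjusted p of 0.0655 to 0.194 in Clone 1 and 0.0722 to 0.141 in Clone 3, and in Clone 1 under quantile normalization (0.0899). Versican, VCAN, a matrix substrate of ADAMTS1, rose by 1.70 in Clone 1 (SE 0.10, adjusted p = 3.1e-05) and was 1.62 above Clone 3 (adjusted p = 2.4e-05). A link between VCAN and ADAMTS1 was not tested. FN1 rose by 1.39 in Clone 3 (SE 0.24, adjusted p = 0.00758; 0.0766 without PC3-ML replicate 1). Of 12 activators and cofactors, 3 rose and 1 fell in Clone 1 and 2 rose in Clone 3. Those of Clone 3 were ITGAV (0.65) and CD44 (0.30). ITGAV rose by 0.65 in Clone 1 as well (adjusted p = 0.00543). The CD44 call was lost in 6 of 9 alternative runs, among them quantile normalization (0.328). That of ITGAV was lost in 2 of 9 in Clone 3 and in 1 of 9 in Clone 1. PLAT fell by 2.72 in Clone 1 (SE 0.18, adjusted p = 3.2e-05) and differed by −2.45 between Clone 1 and Clone 3, while ITGB3 rose by 0.86 in Clone 1. PLAU went the other way from PLAT. It rose by 0.73 in Clone 1 (adjusted p = 0.0318) and was 1.00 higher there than in Clone 3 (adjusted p = 0.00847). The PLAU call in Clone 1 was lost in 3 of 9 alternative runs and that between the clones in 2 of 9. Of 18 shed substrates 1 rose and 1 fell in Clone 1 and 1 rose in Clone 3, and of 9 ADAM10 and ADAM17 partners 1 rose and 1 fell in Clone 1. The shed substrates were TGFA (0.25) and EPGN (−0.30) in Clone 1 and NOTCH2 (0.64) in Clone 3. Their calls were lost in 7 of 9, 3 of 8 and 3 of 9 alternative runs. TSPAN15, which directs ADAM10 to its substrates, was 1.07 higher in Clone 1 than in Clone 3 (SE 0.14, adjusted p = 0.00104). Partners TSPAN5 (−0.58, adjusted p = 0.0378) and TSPAN33 (−0.43, adjusted p = 0.00997) were lower in Clone 1 than in Clone 3. Their calls were lost in 3 of 9 and 2 of 9 alternative runs. Between the clones 14 of the 77 pathway genes (18.2%) were called, beside 10.5% of all genes. Of AP-1, RUNX and ETS factors, ETS1 was higher in Clone 1 than in Clone 3 (0.72, adjusted p = 4.0e-04). RUNX2 (−0.76, adjusted p = 9.9e-04), ETV1 (−0.91) and ETS2 (−0.45) were lower. ITGB3 (0.92) and TGFA (0.40) were also higher in Clone 1, and CD44 (−0.52) and CDH2 (−0.49) lower. The calls of ETV1, ETS2 and CDH2 were lost in 4, 3 and 5 of 9 alternative runs, and those of the others just named in none. Of the 13 AP-1, RUNX and ETS factors, 4 fell in Clone 1, namely ETV4 (−0.65), JUN (−0.59), RUNX2 (−0.50) and ETS2 (−0.48), and 3 in Clone 3, JUN (−0.58), ETS1 (−0.50) and ETV5 (−0.33). JUN in Clone 1 and ETS1 in Clone 3 held in every alternative run. In Clone 1 the ETV4 call was lost in 1 of 9 alternative runs, without PC3-ML replicate 1, and that of RUNX2 in 1 of 9, without Clone 1 replicate 2. The ETS2 call was lost in 3 of 9. In Clone 3 the JUN call was lost in 2 of 9 and that of ETV5 in 5 of 9. ETV5 was lost when any array of the lines compared was left out and under trended and robust moderation (0.115).

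The question of the series, bone metastatic against not, was put to line means of 4 and 3 lines. No member was called by limma (0 of 61, 5 at an unadjusted p under 0.05), beside 0% of all genes, of which 2250 had an unadjusted p under 0.05. ADAMTS3 differed by 1.17 (SE 0.29, adjusted p = 0.405). ADAM12 differed by 0.26, ADAM17 by −0.46, ADAM10 by −0.57 and MMP9 by −0.10, each with an adjusted p of 0.405 or 0.406. MMP13 differed by 0.19 (adjusted p = 0.837) and MMP1 by −0.21 (adjusted p = 0.778), and the line means of both overlapped between the groups. All 4 bone metastatic lines are of PC3 origin and only 1 of the 3 others is, so that label and origin are partly confounded. With origin as a covariate 0 members were called. No gene of the pathway lists was called either.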

How the data were processed

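Total RNA of 7 lines, 2 passages each, was measured on 1-colour arrays, and the authors deposited 1 table of RMA intensity values, linear, per the submitters' processing notes and the values. The RMA version and genome build are not given in the sources used here. All 14 columns were used. Of 28829 probe sets, 19291 carried 1 gene symbol, 1735 several and 7803 none. Values were taken to log2 with no pseudocount or filter.

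A mean per line was fitted to 14 arrays with limma 3.58.1 in R 4.3.3 (two-sided, Benjamini-Hochberg over 18372 genes). Origin and bone metastatic label were fitted on 7 line means. The number of arrays limits the precision. Scripts were tested on simulated data. Alternatives were quantile normalization, a mean log2 of at least 5, the mean of all probe sets, trended and robust moderation, the replicate block, all 14 arrays for line contrasts, origin as covariate, and each array left out.

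Named were MMP13, called members, members spanning at least 1, the 5 highest of each family, and up to 4 called genes of a pathway list per comparison; members and lists were chosen with earlier results of these data known. ADAMs were split into catalytic and non-catalytic by a hand-written textbook list. A split by protein motif had been planned, but protein sequences were not used here. RefSeq tables (GRCh38.p14) served for names, gene order and promoters.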

Additional observations from a re-analysis of the deposited data

Results flagged for a closer look

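Among the 4 bone metastatic lines, ADAM12 in PC3-N(PDGFRα) stood apart, with a line mean of 5.30 on the log2 scale against 5.38 to 5.39 in PC3-ML, Clone 1 and Clone 3. The gap was 0.872 of the range, above the critical value of 0.829. The flag rests on line means that lay close together in the other lines. The arrays of PC3-N(PDGFRα), at 41 and 38, overlapped those of PC3-ML (39.6 and 44.5) and Clone 1 (40.7 and 42.6). Those of Clone 3 were 42.4 and 41.1. The 21 named members were examined in 42 groups, of which this was the 1 that stood apart, and chance gives about 1 in 20.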

How the results depend on the processing

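Of the 23 calls of a member in a comparison, none reversed in 313 alternative values, 269 kept and 44 lost the call, and 11 calls held throughout. In PC3-N(PDGFRα) against PC3-N, 3 members were called, 1 under quantile normalization and 1 under the replicate block. In Clone 1 against PC3-ML, 2 were called and 1 under quantile normalization. In the comparison by bone metastatic label, 0 were called and 11 in the fit of 14 arrays. That fit measures the spread between passages in place of that between lines. By origin 11 were called, 15 in the fit of 14 arrays and 15 under trended and robust moderation. Leaving out 1 array in turn gave 0 to 2 for PC3-ML against PC3-N, 0 to 4 for PC3-N(PDGFRα) against PC3-N, 0 to 2 for the difference between the origins in the effect of PDGFRα, 1 for Clone 1 and 0 to 2 for Clone 3 against PC3-ML, 3 between the clones and 8 to 12 by origin. The cause of these changes was not tested. Apart from ADAMTS3 and MMP13 in PC3-N(PDGFRα) against PC3-N, the replicate block changed no member's call. Whether the replicate numbers pair the arrays was not settled. Over 21 pairs of lines the replicate differences correlated at −0.199 to 0.245, with a median of 0.036 and 5 pairs over 0.1. In 5 of 7 lines the strongest positive correlation exceeded the strongest negative one. Over all genes, quantile normalization changed the balance of higher and lower calls by over 10 points in DU-145 (PDGFRα) against DU-145 (29 and 51, from 12 and 45), in Clone 1 (1250 and 1087, from 1656 and 877) and Clone 3 (735 and 663, from 956 and 533) against PC3-ML, and by origin (1490 and 1955, from 1764 and 1473). Of 63 calls of pathway genes, 30 held in every alternative run and none reversed. The 38 members below a log2 intensity of 5 on every array lie at the lower end, where differences are compressed.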
